A study of Mus musculus with 12 samples.

Results

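The nuclear factor kappa B (NF-kB) system was followed through 10 of its regulators and inflammatory effectors, out of 23446 genes measured in 12 mRNA libraries. The libraries come from C2C12, a mouse myoblast line derived from skeletal muscle. The 10 genes were taken from the deposited table by symbol. They are Nfkb2, Relb, Nfkbia and Tnfaip3, which make up or restrain the NF-kB system, and Nos2, Ptgs2, Vcam1, Icam1, Saa3 and Slpi, effectors of inflammation. Nos2, Saa3 and Slpi were selected for their response to acetoacetate (AA), so their values with AA are given as a description without a test. The other 7 were not selected for that response, but all 10 were chosen with earlier results of these data known. The libraries form 4 groups of 3. GM-AA cells were kept in growth medium (GM) and treated with AA for 12 h, GM-PBS cells in GM received PBS for 12 h as the control, DM-AA cells were kept in differentiation medium (DM) with AA for 12 h, and DM-PBS cells in DM received PBS for 12 h. All groups are the same cell line. The labels give neither the dose or salt of AA nor the composition of the media. Separate cultures are not stated for the 3 libraries within a group, and p-values here reflect the spread between these samples alone, which may be technical. The stated aim was to find genes that respond to AA in proliferating and in differentiating cells. Myoblasts divide in GM and begin to differentiate and fuse in DM, and AA is one of the ketone bodies that the liver makes from fat.

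NF-kB transcription factors are dimers of related subunits that are held in the cytoplasm by inhibitor proteins until a kinase complex marks the inhibitors for degradation. Several of their target genes encode the inhibitors themselves, which closes a negative feedback loop, while others encode cytokines, adhesion molecules and enzymes of inflammation. In muscle cells the classical pathway, through RelA and p50, is known for holding back differentiation, and the alternative pathway, through RelB and p52, has been linked to later stages of it.

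Sequence upstream of the genes is shown first, because the feedback loop runs through the promoters of the regulators. The promoters are those of RefSeq (GRCm38.p6), each spanning 250 bases before to 50 bases after the annotated start. The 10-base kB consensus was searched on both strands in the 10 promoters of the 7 members that matched by symbol, which leaves Nos2, Vcam1 and Relb. It was found in the promoters of 3 of these 7 members, Nfkb2, Nfkbia and Tnfaip3, beside 1388 of all 27025 genes (5.14%). Counted by promoter, 5 of the 10 held it, beside 1480 of all 32851 promoters of that length (4.51%). For each of these regulators a promoter is printed 5′ to 3′ along the gene's strand with the kB matches in capitals, and that of Ptgs2, the effector with AA calls in both media, is printed beside them.
Nfkb2, chr19:46304487-46304786, plus strand: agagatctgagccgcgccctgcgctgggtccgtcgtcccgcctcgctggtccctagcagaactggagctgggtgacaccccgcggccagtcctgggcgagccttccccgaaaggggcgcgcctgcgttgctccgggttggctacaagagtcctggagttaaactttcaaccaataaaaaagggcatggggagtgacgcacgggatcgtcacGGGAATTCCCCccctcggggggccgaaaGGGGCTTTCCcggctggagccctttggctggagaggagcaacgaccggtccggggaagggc
Nfkbia, chr12:55492598-55492897, minus strand: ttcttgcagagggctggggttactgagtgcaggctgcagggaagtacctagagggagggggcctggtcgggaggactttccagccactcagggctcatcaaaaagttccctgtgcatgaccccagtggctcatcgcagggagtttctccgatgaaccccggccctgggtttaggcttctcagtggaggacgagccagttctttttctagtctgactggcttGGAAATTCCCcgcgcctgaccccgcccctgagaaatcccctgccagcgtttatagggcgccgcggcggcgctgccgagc
Tnfaip3, chr10:19015361-19015660, minus strand: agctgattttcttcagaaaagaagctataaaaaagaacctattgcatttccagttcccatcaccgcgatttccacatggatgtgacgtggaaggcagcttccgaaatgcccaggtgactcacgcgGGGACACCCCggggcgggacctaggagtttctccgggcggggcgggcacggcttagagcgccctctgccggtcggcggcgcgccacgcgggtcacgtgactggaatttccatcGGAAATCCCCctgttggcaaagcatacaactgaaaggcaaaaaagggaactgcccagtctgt
Ptgs2, chr1:150099781-150100080, plus strand: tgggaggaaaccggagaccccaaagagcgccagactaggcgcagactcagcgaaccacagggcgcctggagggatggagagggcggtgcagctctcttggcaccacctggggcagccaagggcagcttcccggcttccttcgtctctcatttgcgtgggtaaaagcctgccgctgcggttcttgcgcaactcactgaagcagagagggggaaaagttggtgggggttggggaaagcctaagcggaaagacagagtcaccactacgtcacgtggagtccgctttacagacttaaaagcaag
The Nfkb2 promoter shown held matches that begin 39, 38 and 11 bases before the start. The first reads as a match on both strands and overlaps the second. The other annotated starts of Nfkb2 lie downstream, and their windows held 2 matches and 1 match, of which 1 is the same site seen from both starts. Nfkbia held 1 match that began 29 bases before the start. Tnfaip3 held 2 at this start, 125 and 12 bases before it, and 0 at its other start. Ptgs2, Icam1, Saa3 and Slpi had 0 matches in this window, which says only that these letters are not there. A match is a description of letters and not evidence of binding. In the GENCODE M21 annotation (GRCm38) the other members are Relb at chr7:19606217-19629438 (minus strand), Nos2 at chr11:78920787-78960254 (plus strand), Vcam1 at chr3:116109949-116129688 (minus strand), Icam1 at chr9:21015985-21028817 (plus strand), Saa3 at chr7:46711998-46715700 (minus strand) and Slpi at chr2:164354070-164389095 (minus strand).

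Library depth, as the sum of gene counts, was 8484417 to 8801619 reads in GM-AA, 8292006 to 8965129 in GM-PBS, 8027518 to 8245402 in DM-AA and 7959519 to 9893564 in DM-PBS. Muscle markers were present in every group: desmin (Des) averaged 1700 ± 32 CPM in GM-AA and 1450 ± 29 CPM in GM-PBS, and 1790 ± 97.4 CPM in DM-AA and 1550 ± 16.2 CPM in DM-PBS (SD, n = 3 each), where CPM is counts scaled to a common library size. Several members are best known from macrophages and endothelium, so markers of those cells were read as well. The 9 macrophage and leukocyte markers summed to 16.8 to 19.2 CPM in GM-AA and 19 to 22 CPM in GM-PBS, and to 13.6 to 18.7 CPM in DM-AA and 16.8 to 19.1 CPM in DM-PBS, most of it Cd14. Ptprc (CD45), Itgam and Emr1 (F4/80) had at most 1 read in any library. Cd68, another marker of the list, was detected, at 3.69 ± 0.581 CPM in GM-AA and 3.4 ± 0.295 CPM in GM-PBS. In DM-AA it averaged 2.15 ± 0.266 CPM and in DM-PBS 1.8 ± 0.511 CPM. Csf1r and Lyz2 had at most 10 and 5 reads in a library. The 5 endothelial markers summed to at most 1.86 CPM in any library, with Tie1 at 0. The 7 genes listed as myoblast and muscle markers summed to 6970 to 7320 CPM in GM-AA and 7960 to 8410 CPM in GM-PBS. In DM-AA they summed to 7530 to 8060 CPM and in DM-PBS to 8180 to 8400 CPM. Vimentin (Vim) made up most of each sum, so the sum mostly follows that 1 gene. Vim was lower with AA by 0.31 ± 0.045 in GM and by 0.25 ± 0.045 in DM on the log2 scale. Several of the other markers moved the other way with AA. Myog, the myogenin gene that marks the onset of differentiation, averaged 15 ± 2.54 CPM in GM-AA and 11.8 ± 1.34 CPM in GM-PBS, and 135 ± 11.5 CPM in DM-AA and 70.2 ± 3.07 CPM in DM-PBS. In the edgeR test described below, its log2 fold change with AA was 0.35 ± 0.13 in GM (adjusted p = 0.0489), and in DM it was 0.94 ± 0.066 (adjusted p = 5.03e-13). Myog was also higher in DM than in GM by 2.87 ± 0.064 (adjusted p = 4.43e-28). Cdh15 was higher with AA by 0.39 ± 0.051 in GM and 0.41 ± 0.047 in DM, and Myf5 by 0.64 ± 0.072 and 0.27 ± 0.068, whereas Myod1 was at -0.34 ± 0.049 in GM (adjusted p = 3.52e-06) and 0.06 ± 0.050 in DM (adjusted p = 0.425). The part of these marker changes in the results on the NF-kB genes was not tested. In bulk RNA, fewer cells expressing a gene and less RNA per cell cannot be told apart. Libraries also differed along the GC content of transcripts. The Spearman rho across genes between GC content and a library's departure from the mean was -0.177 to -0.114 in GM-AA and 0.00536 to 0.211 in GM-PBS, and -0.148 to -0.0612 in DM-AA and 0.127 to 0.15 in DM-PBS. AA values of the members with that trend removed are given beside the results, and for other pathway genes where a call named here was lost by it.

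Levels of different members are compared per length of gene, as the RPKM values (reads per kilobase and library size) that the authors deposited. Nfkbia and Vcam1 were the 2 highest in all 4 groups, at 22.5 ± 1.66 and 22.2 ± 0.275 RPKM in GM-AA and 27.2 ± 0.452 and 22 ± 0.939 RPKM in GM-PBS, and at 23.3 ± 1.65 and 22.4 ± 1.15 RPKM in DM-AA and 25.8 ± 1.09 and 27.8 ± 0.94 RPKM in DM-PBS (SD, n = 3). Their ranges overlapped in both AA groups, while Nfkbia lay above Vcam1 in GM-PBS and below it in DM-PBS. In GM-PBS the order continued with Ptgs2, Tnfaip3, Nfkb2, Nos2, Slpi, Relb, Saa3 and Icam1, and of these neighbours only Nos2 and Slpi overlapped; Vcam1 and Ptgs2 overlapped as well. In DM-PBS it continued with Nfkb2, Tnfaip3, Relb, Ptgs2, Saa3, Slpi, Nos2 and Icam1, where Tnfaip3 overlapped Relb, Ptgs2 overlapped Saa3 and Saa3 overlapped Slpi. Ptgs2 and Nos2 therefore stood lower in the order in DM, and Nfkb2 and Relb stood higher.

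Icam1, the adhesion molecule to which leukocyte integrins bind, was listed at 1, 1 and 1 read in GM-AA and 0, 0 and 0 reads in GM-PBS, and at 0, 1 and 1 read in DM-AA and 0, 0 and 0 reads in DM-PBS. A count of 0 allows up to 3 reads, which is 0.0774 to 0.0962 RPKM for this gene, and covers counting error only. With so few reads it did not enter the tests, no fold is given, and 9 of the 10 members could be tested. Exons on the opposite strand cover 11.7% of Icam1, and the authors' counting lists even Gapdh at 0 reads in all libraries, so a listed 0 does not show that a gene was silent.

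**Figure D1:**
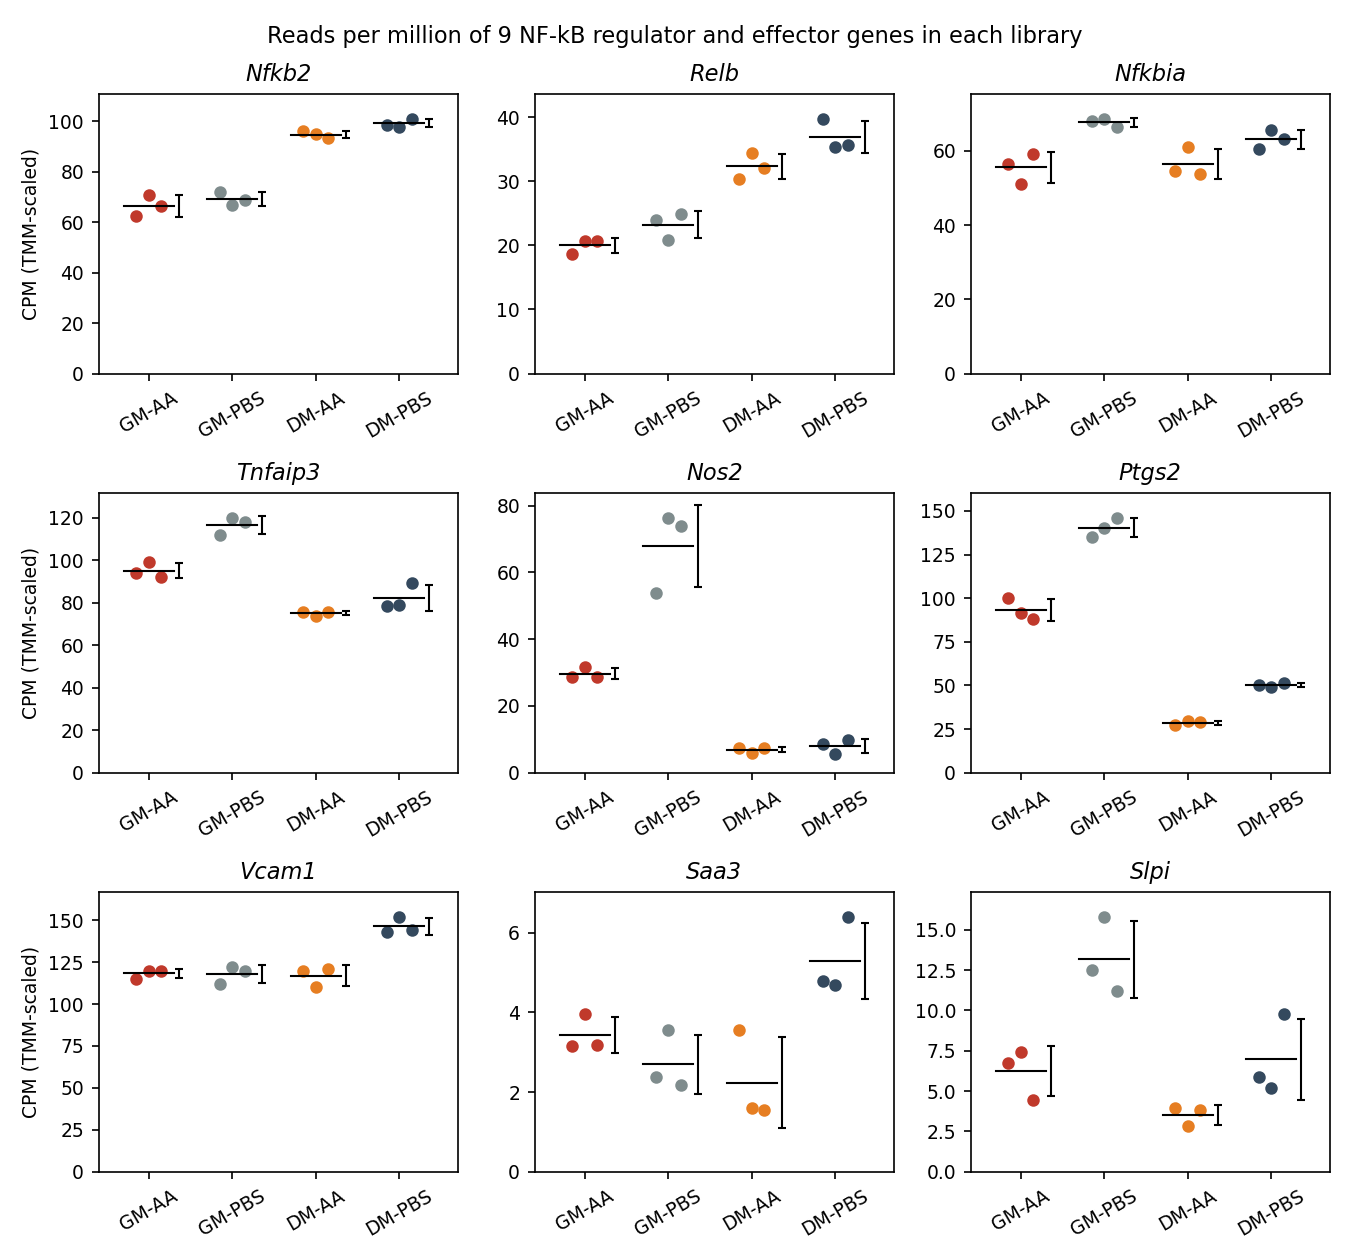
Scaled counts (CPM, y axis, from 0) of 9 members in each library, by group on the x axis, with 3 points per group, the mean as a line and the SD as a bar. Nos2 and Ptgs2 stand lower in all DM than in all GM libraries, Nfkb2 and Relb stand higher in DM, and Vcam1 is highest in the 3 DM-PBS libraries.

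With AA in growth medium, both inhibitors and the inducible cyclooxygenase fell. Lower expression of Nfkbia, Tnfaip3 and Ptgs2 passed the test, out of 6 tested members that had not been chosen for this response, and 0 members were higher (edgeR quasi-likelihood test with 3 libraries per group, Benjamini-Hochberg adjusted p under 0.05 over 12230 genes). Over all tested genes 20.7% passed in this comparison, 9.76% higher and 11.0% lower. Libraries of the groups did not overlap for 16.4% of tested genes in the higher direction and for 17.6% in the lower direction. Values below are log2 fold changes ± SE from that test.

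The inhibitor IkB alpha, encoded by Nfkbia, binds NF-kB dimers in the cytoplasm. It had 56.4, 51 and 59.2 CPM in the GM-AA libraries, against 68.1, 68.6 and 66.4 CPM in the GM-PBS libraries. All 3 GM-AA libraries lay below all 3 GM-PBS libraries, and Nfkbia fell by 0.29 ± 0.064 (adjusted p = 0.00134), which is 18% lower. Tnfaip3 encodes A20, a ubiquitin-editing enzyme that shuts off signalling from the TNF and Toll-like receptors. It had 94.1, 99.2 and 92.4 CPM in GM-AA, against 112, 120 and 118 CPM in GM-PBS, again without overlap, and it fell by 0.29 ± 0.054 (adjusted p = 0.000144). With the GC trend removed both calls were kept, with adjusted p = 0.00301 for Nfkbia and 1.92e-05 for Tnfaip3.

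The subunits of the alternative pathway gave smaller differences. Relb, which encodes the subunit RelB, had 18.7, 20.7 and 20.6 CPM in GM-AA, against 23.9, 20.9 and 24.9 CPM in GM-PBS. The groups did not overlap, as 17.6% of all tested genes did not in that direction, but the highest GM-AA and the lowest GM-PBS library were close, and the log2 fold change of Relb was -0.22 ± 0.094 (adjusted p = 0.0958). It passed without GM-PBS 2 (adjusted p = 0.0462) and was at -0.16 with the GC trend removed (adjusted p = 0.249). Nfkb2, which encodes p100, the precursor of p52, had 62.4, 70.9 and 66.3 CPM in GM-AA, against 72.1, 66.8 and 69 CPM in GM-PBS. These overlapped, and Nfkb2 was at -0.060 ± 0.058 with a 95% interval of -0.19 to 0.073 (adjusted p = 0.509), and at 0.01 with the GC trend removed. Exons of other genes on the opposite strand cover 18.1% of Nfkb2, so its counts are uncertain where reads were assigned without strand.

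Among the effectors, Ptgs2 encodes COX-2, the inducible enzyme of prostaglandin synthesis. It had 100, 91.3 and 88.3 CPM in GM-AA, against 135, 140 and 146 CPM in GM-PBS, and fell by 0.59 ± 0.052 (adjusted p = 3e-10). The GM-AA and GM-PBS libraries were well apart, at a linear fold of 0.666, and with the GC trend removed the value of Ptgs2 was -0.67 (adjusted p = 1.23e-12). Vcam1, an adhesion molecule that binds integrin alpha-4 and is also expressed by myoblasts, had 115, 120 and 120 CPM in GM-AA, against 112, 122 and 120 CPM in GM-PBS. These overlapped almost completely, with a log2 fold change of 0.007 ± 0.051 and a 95% interval of -0.11 to 0.12 (adjusted p = 0.947). With the GC trend removed Vcam1 was at -0.08 (adjusted p = 0.256).

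The genes chosen for their response are described without a test. Nos2 encodes the inducible nitric oxide synthase. It had 28.7, 31.5 and 28.6 CPM in GM-AA, against 53.9, 76.3 and 73.8 CPM in GM-PBS, so the GM-AA libraries were close together and the GM-PBS libraries spread, with GM-PBS 1 the lowest. The difference was -1.20 ± 0.10. Slpi encodes a secreted inhibitor of leukocyte proteases. It had 6.75, 7.44 and 4.47 CPM in GM-AA, against 12.5, 15.8 and 11.2 CPM in GM-PBS, from 38 to 64 reads and 93 to 129 reads. The groups did not overlap, at -1.08 ± 0.18. Saa3 encodes an acute-phase serum amyloid A protein. It had 3.15, 3.95 and 3.18 CPM in GM-AA, against 2.39, 3.55 and 2.17 CPM in GM-PBS, which overlapped, at 0.35 ± 0.26. This value of Saa3 was 0.59 without GM-PBS 2, 0.22 without GM-PBS 3 and 0.23 without GM-AA 2. With the GC trend removed, the values in GM were -1.17 for Nos2, -1.02 for Slpi and 0.39 for Saa3. The liver-type genes Saa1 and Saa2 had at most 4 reads in any library.

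**Figure D2:**
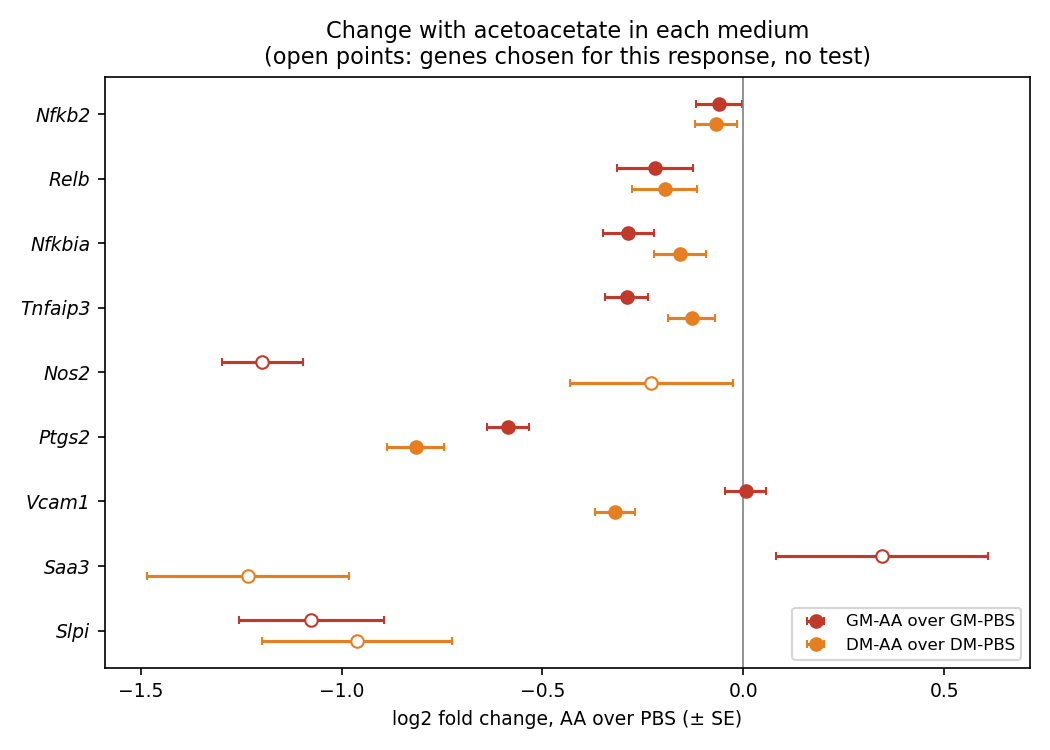
Log2 fold change of AA over PBS (x axis, bars are SE from the quasi-likelihood fit, n = 3 libraries per group) for 9 members (y axis) in GM (red) and DM (orange), with open points for the 3 genes chosen for this response. Ptgs2 lies at -0.59 in GM and -0.82 in DM, Vcam1 at 0.007 and -0.32, and Saa3 at 0.35 and -1.23.

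With AA in differentiation medium, the effectors Ptgs2 and Vcam1 fell while none of the 4 regulators passed the test. Of the 6 tested members that were not chosen for this response, 2 were lower and 0 higher, where 26.4% of all tested genes passed, 12.6% higher and 13.8% lower. Libraries did not overlap for 19.9% of tested genes in the higher direction and for 20.2% in the lower direction. Ptgs2 had 27.3, 29.5 and 28.9 CPM in DM-AA, against 50.5, 49 and 51.5 CPM in DM-PBS. The 2 groups were tight and far apart, and Ptgs2 fell by 0.82 ± 0.072 (adjusted p = 1.07e-10). Vcam1 had 120, 110 and 121 CPM in DM-AA, against 143, 152 and 144 CPM in DM-PBS, and fell by 0.32 ± 0.051 (adjusted p = 9.14e-06). Its DM-AA libraries lay within or just below the range of the GM libraries of either treatment, and the DM-PBS libraries stood above all of the others. With the GC trend removed, Ptgs2 was at -0.90 (adjusted p = 1.82e-12) and Vcam1 at -0.41 (adjusted p = 1.43e-08).

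The regulators were slightly lower in the DM-AA than in the DM-PBS libraries without passing. Nfkbia had 54.5, 61.1 and 53.7 CPM in DM-AA, against 60.5, 65.6 and 63.2 CPM in DM-PBS. DM-AA 2 lay within the DM-PBS range, and the change was -0.16 ± 0.065 (adjusted p = 0.069). Without DM-AA 2 it passed (adjusted p = 0.0248), and with the GC trend removed it did not (adjusted p = 0.194). Tnfaip3 had 75.9, 74 and 75.6 CPM in DM-AA, against 78.6, 78.9 and 89.4 CPM in DM-PBS. The groups did not overlap, as 20.2% of tested genes did not in that direction, but DM-PBS 3 made most of the distance, and the value was -0.13 ± 0.058 (adjusted p = 0.0999). It was -0.07 without DM-PBS 3 (adjusted p = 0.481) and -0.14 with the GC trend removed (adjusted p = 0.0695). Relb had 30.4, 34.4 and 32.1 CPM in DM-AA, against 39.7, 35.3 and 35.7 CPM in DM-PBS, at -0.20 ± 0.080 (adjusted p = 0.07), and at -0.13 without DM-PBS 1 (adjusted p = 0.325). Nfkb2 had 96.3, 94.9 and 93.3 CPM in DM-AA, against 98.8, 98 and 101 CPM in DM-PBS, at -0.068 ± 0.053 with a 95% interval of -0.19 to 0.053 (adjusted p = 0.372). With the GC trend removed, Nfkb2 was at 0.02 (adjusted p = 0.838) and Relb at -0.12 (adjusted p = 0.294).

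Of the genes chosen for their response, Saa3 had 3.56, 1.59 and 1.56 CPM in DM-AA, against 4.78, 4.69 and 6.4 CPM in DM-PBS. These come from 13 to 29 reads and 38 to 51 reads, and the groups did not overlap. The difference in Saa3 was -1.23 ± 0.25, and -1.73 without DM-AA 1, the highest of the 3 DM-AA libraries. Slpi had 3.93, 2.82 and 3.83 CPM in DM-AA, against 5.9, 5.18 and 9.8 CPM in DM-PBS, at -0.96 ± 0.24, and its alternatives ranged from -1.12 to -0.66. Nos2 had 7.24, 6 and 7.3 CPM in DM-AA, against 8.65, 5.55 and 9.8 CPM in DM-PBS. The DM-PBS range enclosed the DM-AA range, at -0.23 ± 0.20. This value of Nos2 was -0.42 without DM-PBS 2, -0.08 without DM-PBS 3 and -0.14 without DM-AA 2. With the GC trend removed, the values in DM were -1.29 for Saa3, -0.93 for Slpi and -0.19 for Nos2.

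Whether the AA effect differs between the media was tested as a difference of the 2 effects, which uses all 4 groups. Of the 6 tested members 1 passed, Vcam1, where 5.24% of all tested genes did, 2.58% with a higher and 2.67% with a lower effect in DM. The AA effect on Vcam1, DM minus GM, was -0.33 ± 0.072 on the log2 scale (adjusted p = 0.00405), and it passed in all 18 alternatives (adjusted p from 0.00108 to 0.0242). For Ptgs2 the difference was -0.23 ± 0.090 (adjusted p = 0.148), with a 95% interval of -0.44 to -0.023. The inhibitors, which were called in GM and not in DM, did not differ past the test between media: Tnfaip3 was at 0.16 ± 0.079 (adjusted p = 0.29) and Nfkbia at 0.13 ± 0.091 (adjusted p = 0.534). Relb (0.025 ± 0.12) and Nfkb2 (-0.009 ± 0.078) had adjusted p = 0.956 and 0.978. As a description, the difference was 0.97 ± 0.23 for Nos2, -1.58 ± 0.37 for Saa3 and 0.11 ± 0.31 for Slpi, and for Saa3 it was -2.08 without DM-AA 1. The value of Slpi ranged from -0.07 without GM-AA 3 to 0.42 without DM-PBS 3, so its sign changed with 1 library left out, and that of Nfkbia was 0.07 without DM-AA 2 or without GM-AA 2.

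Differentiation medium moved the members in opposite directions. The subunit genes Nfkb2 and Relb were higher in DM, and Nos2, Ptgs2, Slpi and Tnfaip3 were lower. This was tested as DM minus GM averaged over AA and PBS, a contrast that is orthogonal to the AA contrasts by which Nos2, Saa3 and Slpi had been chosen, so all 9 members with enough reads were tested. Of these, 3 were higher and 4 lower past the test. In this comparison 64.3% of all tested genes passed, 32.2% higher and 32.1% lower, so the number of calls among the members is near that of genes at large.

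Relb was higher in DM by 0.68 ± 0.062 (adjusted p = 1.21e-11), at 32.3 ± 1.99 CPM in DM-AA and 20 ± 1.14 CPM in GM-AA, and 36.9 ± 2.45 CPM in DM-PBS and 23.3 ± 2.06 CPM in GM-PBS. Nfkb2 was higher by 0.52 ± 0.039 (adjusted p = 1.38e-13), at 94.8 ± 1.48 CPM in DM-AA and 66.5 ± 4.22 CPM in GM-AA, and 99.4 ± 1.8 CPM in DM-PBS and 69.3 ± 2.71 CPM in GM-PBS. For both genes, all 6 DM libraries lay above all 6 GM libraries, which held for 16.0% of tested genes. The increase was 0.69 ± 0.089 and 0.67 ± 0.085 for Relb with AA and with PBS, and 0.51 ± 0.056 and 0.52 ± 0.055 for Nfkb2, as descriptions. Both encode partners of the same dimer.

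Among the inhibitors the medium parted the pair. Tnfaip3 was lower in DM, at -0.42 ± 0.039 (adjusted p = 2.55e-11), with all DM libraries below all GM libraries, as for 17.4% of tested genes. Its means were 75.1 ± 1.03 CPM in DM-AA and 95.2 ± 3.54 CPM in GM-AA, and 82.3 ± 6.16 CPM in DM-PBS and 116 ± 4.03 CPM in GM-PBS. Nfkbia was at -0.040 ± 0.046 with a 95% interval of -0.15 to 0.065 (adjusted p = 0.449).

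The effector with the lowest medium value was Nos2, at -2.59 ± 0.10 (adjusted p = 1.91e-21), which is 6.03-fold lower in DM. It averaged 6.85 ± 0.733 CPM in DM-AA and 29.6 ± 1.64 CPM in GM-AA, and 8 ± 2.2 CPM in DM-PBS and 68 ± 12.3 CPM in GM-PBS. The fall was -2.11 ± 0.15 with AA and -3.08 ± 0.13 with PBS. Ptgs2 was 3.02-fold lower in DM, at -1.59 ± 0.044 (adjusted p = 1.13e-25), with 28.6 ± 1.18 CPM in DM-AA and 93.3 ± 6.26 CPM in GM-AA, and 50.3 ± 1.28 CPM in DM-PBS and 140 ± 5.18 CPM in GM-PBS. Neither gene had a DM library within its GM range. The lowest level of Ptgs2 was therefore that with both DM and AA. Slpi was lower in DM, at -0.88 ± 0.15 (adjusted p = 4.88e-06), at 3.52 ± 0.615 CPM in DM-AA and 6.22 ± 1.55 CPM in GM-AA, and 6.96 ± 2.48 CPM in DM-PBS and 13.2 ± 2.37 CPM in GM-PBS. Its DM and GM libraries overlapped over both treatments.

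For Vcam1 and Saa3 the averages cover unlike values with AA and with PBS. Vcam1 was higher in DM by 0.15 ± 0.036 on average (adjusted p = 0.000647), which divides into -0.016 ± 0.051 with AA and 0.31 ± 0.050 with PBS. Saa3 was at 0.17 ± 0.19 on average (adjusted p = 0.429), from -0.62 ± 0.28 with AA and 0.96 ± 0.24 with PBS. Without 1 library the average for Saa3 ranged from -0.08 (without DM-AA 1) to 0.29 (without GM-PBS 2). The level of Saa3 was 2.24 ± 1.15 CPM in DM-AA and 3.43 ± 0.454 CPM in GM-AA, and 5.29 ± 0.965 CPM in DM-PBS and 2.7 ± 0.744 CPM in GM-PBS.

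**Figure D3:**
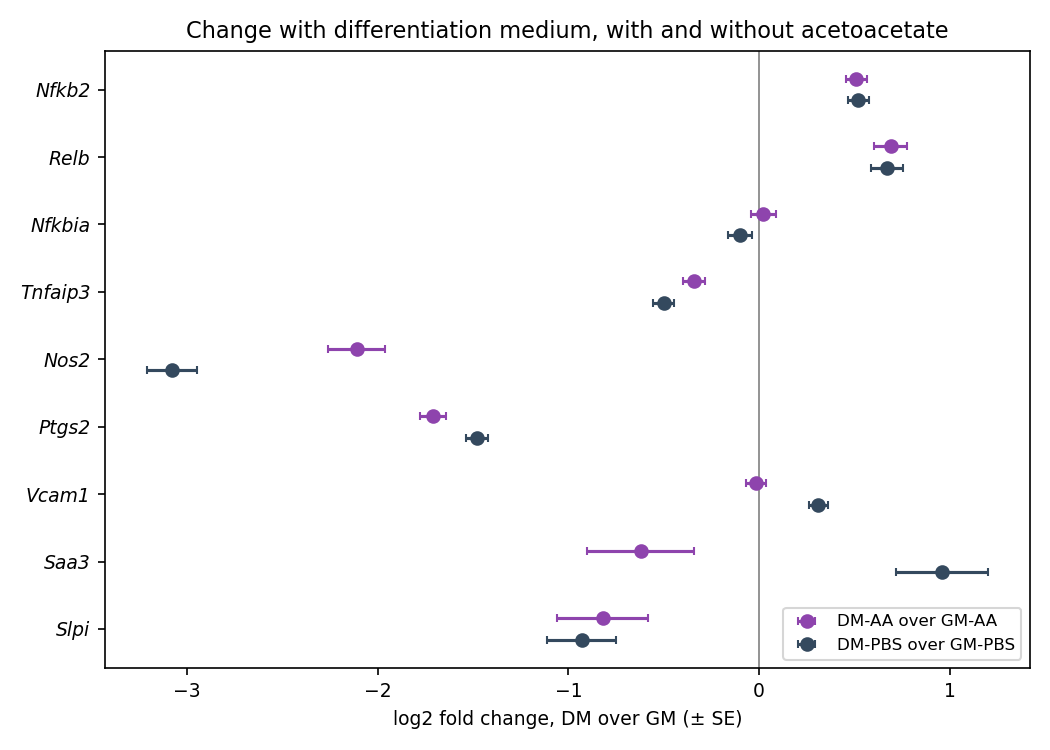
Log2 fold change of DM over GM (x axis, bars are SE from the quasi-likelihood fit, n = 3 libraries per group) for 9 members (y axis), in AA-treated cells (purple) and PBS-treated cells (dark blue). Nfkb2 and Relb are positive with both treatments, Nos2, Ptgs2, Slpi and Tnfaip3 are negative with both, and Saa3 is at -0.62 with AA and 0.96 with PBS.

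Other genes of the pathway, 77 in number, were grouped by role. Of these, 61 had enough reads to be tested. With AA in GM, 1 rose and 14 fell, which is 24.6% called beside 20.7% of all tested genes, and the median of the 61 was -0.08 against -0.003 over all tested genes. With AA in DM, 2 rose and 19 fell, which is 34.4% called beside 26.4%, with a median of -0.12 against 0.002. The list was chosen with earlier results of these data known. Its counts and medians, here and by role below, therefore describe the list only and were given no test of their own.

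Of the other 3 subunit genes, all tested, 1 fell in GM and 2 fell in DM, beside 11.0% and 13.8% of all tested genes. None rose past the test. Rel, which was not called, was at 0.12 ± 0.15 in GM (edgeR adjusted p = 0.623) and 0.15 ± 0.17 in DM (adjusted p = 0.558). Nfkb1, which encodes p105, the precursor of p50, fell by 0.27 ± 0.052 in GM (edgeR adjusted p = 0.000255), and in DM it fell by 0.33 ± 0.052 (adjusted p = 8.84e-06). Rela, the main activating subunit, fell by 0.17 ± 0.052 in DM (adjusted p = 0.0149), a call that was lost with the GC trend removed (adjusted p = 0.276), without DM-AA 2 (adjusted p = 0.095) and without DM-PBS 3 (adjusted p = 0.0785). In GM, Rela was at -0.12 ± 0.052 (adjusted p = 0.0895).

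Among inhibitors and feedback genes, 5 of 10 tested fell in GM and 3 of 10 in DM, beside 11.0% and 13.8% of all tested genes, and 0 rose in either. The GM count includes Bcl3 at -0.32 ± 0.097 and Tnip2 at -0.27 ± 0.081, whose calls were lost in 5 and in 3 of 19 alternatives. Bcl3 was lost with the GC trend removed (edgeR adjusted p = 0.105) and Tnip2 with DESeq2 (adjusted p = 0.0589). Nfkbiz, which encodes the nuclear inhibitor protein IkB zeta, a coactivator of secondary NF-kB targets such as Il6, averaged 100 ± 3.52 CPM in GM-AA and 156 ± 4.09 CPM in GM-PBS, and 48.1 ± 4.29 CPM in DM-AA and 87 ± 0.843 CPM in DM-PBS. In GM it fell by 0.64 ± 0.051 (adjusted p = 3.25e-11), and in DM it fell by 0.85 ± 0.061 (adjusted p = 6.97e-13). Zc3h12a, the RNase Regnase-1 that degrades cytokine transcripts, fell by 0.52 ± 0.062 in GM and by 0.68 ± 0.064 in DM. The deubiquitinase gene Cyld fell by 0.25 ± 0.056 in GM, and Otud7b, another deubiquitinase, fell by 0.31 ± 0.047 in DM.

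In the kinase complex, 0 of 9 tested genes passed the edgeR test in either medium. Their values in GM lay between -0.28 for Ikbke and 0.19 for Chuk, which encodes IKK alpha. At an unadjusted p under 0.05, 3 of the 9 passed in GM, beside 32.8% of all tested genes, and 1 in DM, beside 37.0%, and DESeq2 called 0 in GM and 0 in DM. Among 14 adaptors, 1 rose in GM, beside 9.76% of all tested genes, which was Traf6 at 0.18 ± 0.059, a call lost in 8 of 19 alternatives. In DM, Traf3 and Birc2, which both act in the degradation of the kinase NIK, rose by 0.23 ± 0.049 and 0.27 ± 0.072, while Traf5 fell by 0.40 ± 0.092.

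Of the 10 tested receptor genes, 3 fell in GM and 6 in DM, beside 11.0% and 13.8% of all tested genes, and 0 rose. In GM these were the TNF receptor Tnfrsf1a at -0.24 ± 0.049, Il1rap at -0.33 ± 0.078 and the TWEAK receptor Tnfrsf12a at -0.19 ± 0.053, the last of which was lost with the GC trend removed (adjusted p = 0.144). In DM the interleukin 1 receptor Il1r1 fell by 0.35 ± 0.054, Tnfrsf1b fell by 0.32 ± 0.051 and Tnfrsf12a fell by 0.36 ± 0.058. Of 9 ligand genes only 3 had enough reads to be tested, and Tnf, Il1b and Lta had at most 7 reads in any library. Il33 fell by 0.22 ± 0.078 in DM (adjusted p = 0.0304), a call lost under 4 of 19 alternatives (adjusted p up to 0.205).

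Of 12 tested targets other than chemokines, 5 fell in GM and 6 in DM, beside 11.0% and 13.8% of all tested genes, and 0 rose. The GM count includes Csf1 at -0.13 ± 0.047 (edgeR adjusted p = 0.0472), a call lost in 14 of 19 alternatives. Among these were DESeq2 (adjusted p = 0.0539) and removal of the GC trend (adjusted p = 0.13). Ier3, an early response gene that NF-kB induces, fell by 0.45 ± 0.055 in GM and by 0.66 ± 0.068 in DM. In GM the complement gene C3 fell by 0.43 ± 0.088 and the mitochondrial superoxide dismutase gene Sod2 by 0.24 ± 0.059. In DM the colony stimulating factor Csf1 fell by 0.38 ± 0.048 and the survival gene Bcl2l1 by 0.33 ± 0.060. The cytokine gene Il6, named after its values were seen because it lay farthest from 0, had at most 19 reads in a library. It passed the read filter only through GM-PBS, where it was highest. Its values are therefore a description, although the counts of 5 and 6 above include it. Il6 averaged 0.774 ± 0.281 CPM in GM-AA and 2.06 ± 0.225 CPM in GM-PBS, at -1.40 ± 0.36. In DM it averaged 0.201 ± 0.183 CPM in DM-AA and 0.727 ± 0.0938 CPM in DM-PBS, at -1.78 ± 0.62. Its DM call was lost in 6 of 19 alternatives, among them DESeq2 (adjusted p = 0.0907). Another used the DM groups alone, where Il6 had too few reads to be tested. The AA effect differed between media for 3 of the 61 genes (4.92%, beside 5.24% of all tested genes), Il1r1, Tlr4 and Csf1, at -0.35 ± 0.078, -0.32 ± 0.088 and -0.25 ± 0.067 (adjusted p = 0.00435, 0.0265 and 0.0194); they are named here after their values were seen. The Il1r1 call was kept in all 18 alternatives, while those of Tlr4 and Csf1 were lost in 7 and in 4 of 18. Of the 61 genes, 19 were higher and 26 lower in DM than in GM, which is 73.8% called beside 64.3%.

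**Figure D4:**
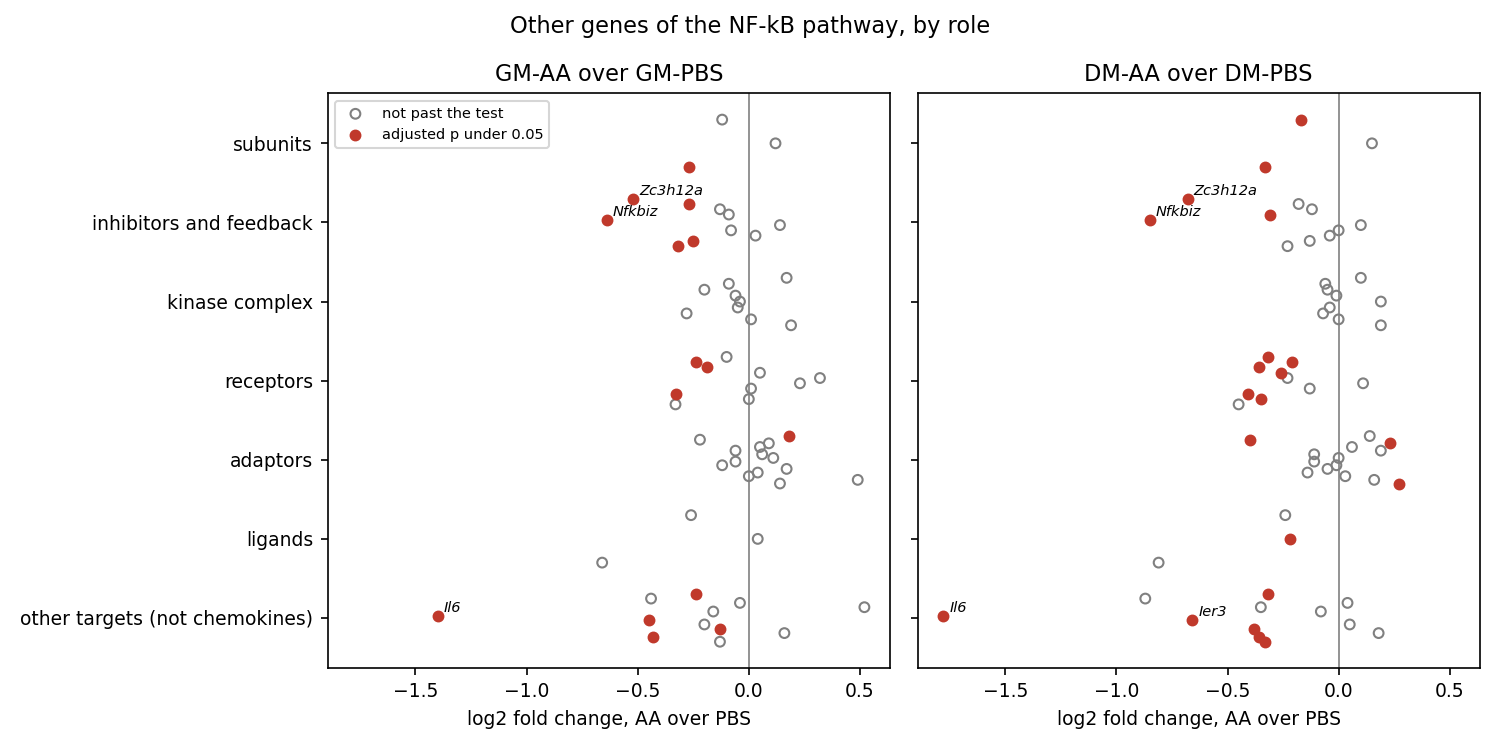
Log2 fold change of AA over PBS (x axis) of the 61 tested pathway genes by role (y axis) in GM (left) and DM (right), filled red where the adjusted p is under 0.05 and open grey otherwise, with names for called genes past 0.5 in size. Il6 lies farthest left in both media, Nfkbiz and Zc3h12a lie farthest left among the inhibitors in both media, and the 9 kinase genes have no filled point.

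Genes whose 4 group means followed a similar course were found by the root mean square difference of centred log2 CPM over the 4 groups, on the same 12 libraries that chose the members, so this is a description. Nearest to Nos2 were Smtnl2, Car12 and Lman1l, at 0.221, 0.252 and 0.291, and of these Car12, a carbonic anhydrase gene, had the most reads, with 18.4 CPM in GM-AA and 27.5 CPM in GM-PBS. Smtnl2 and Lman1l were at 0.365 CPM or less in both DM groups, so their course there rests on few reads. Nearest to Slpi were Susd1, Cd93 and 2610528A11Rik at 0.11, 0.123 and 0.14, and nearest to Saa3 were Gm10658, Gm216 and Epas1 at 0.096, 0.147 and 0.152, all 3 of them at 1.55 CPM or less in each group. Cd93 also had few reads in DM, at 0.49 CPM in DM-AA and 0.911 CPM in DM-PBS. The neighbours of Nfkbia were 2310045N01Rik, Por and Crtap at 0.0111 to 0.0116, and those of Relb were Bbs2, Rhbdf1 and 4931414P19Rik at 0.0191 to 0.0231. The measure is not scaled by the size of a gene's changes, so the distances of different members cannot be compared with each other.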

How the data were processed

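Messenger RNA of 12 C2C12 libraries was read from 1 deposited table of 23446 genes. Per the file headers, the authors gave raw read counts and RPKM per library, with each gene's length as the union of its exons. Per the submitters' processing notes, BWA 0.5.9-r16 and the mm9 build were used, while counting rule, strand and annotation are not stated in the labels. RPKM recomputed from counts, length and 1 divisor per library matched the deposited values within 0.000498%.

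Counts were tested with edgeR 4.0.16 (R 4.3.3): genes were kept by filterByExpr (12230), scaled by TMM and fitted with 4 group means by glmQLFit and glmQLFTest, two-sided, with 8 residual degrees of freedom and a common biological coefficient of variation of 4.08%. P-values were adjusted by Benjamini-Hochberg over all tested genes, with a threshold of 0.05. The SE is the absolute log2 fold change over the square root of F, and 95% intervals use 8 degrees of freedom. Replicate libraries differed beyond counting noise (chi-square over degrees of freedom of 1.43 to 2.84). The fit was tested on simulated data. GC content came from the longest GENCODE M21 transcript of each gene (12144 of the tested genes) and exon overlaps from the same annotation (GRCm38).

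The members and the pathway list were chosen with earlier results of these data known. Named were all members, up to 3 called genes per role and AA comparison with the smallest p, and the 3 nearest genes to Nos2, Saa3, Slpi, Nfkbia and Relb. Bcl3, Tnip2 and Csf1 in GM were named because their calls were lost in alternatives, and Rel to complete the subunits. Alternatives were DESeq2 1.42.0, RLE scaling, no low-count filter, each comparison's groups alone, a replicate block, removal of the GC and length trend and leaving out each library.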

Additional observations from a re-analysis of the deposited data

Results flagged for a closer look

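The AA effect on Vcam1 differed between the media, by a test of the difference itself: -0.33 on the log2 scale, DM effect minus GM effect (edgeR quasi-likelihood test, adjusted p = 0.00405). All 3 DM-AA libraries lay below all 3 DM-PBS libraries, while the GM-AA and GM-PBS libraries overlapped.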

How the results depend on the processing

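Of the counts of called genes (all genes, members and pathway list), 220 recomputed ones stayed within 1.5 times of those reported and 2 did not, both for the pathway list, and the 3 AA calls in GM, the 2 in DM, the Vcam1 difference between media and the 7 medium calls were kept in every alternative. Of the members, Relb passed in GM without GM-PBS 2 and Nfkbia in DM without DM-AA 2, and 2 values of Saa3 moved past the spread between replicates without DM-AA 1. Leaving out 1 library moved Nos2, Tnfaip3 and Relb in DM, Saa3 in GM, the Slpi and Nfkbia differences and the Saa3 medium average by over 1.5 times, and removing the GC trend moved Relb in DM by as much, with the values given above. Member values near 0 also moved by as much or changed sign. With the GC trend removed, Nfkb2 went from -0.060 to 0.01 in GM and from -0.068 to 0.02 in DM. In GM, Nfkb2 was at -0.11 without GM-AA 2 and at -0.02 without GM-AA 1. The number of pathway genes whose AA effect differed between media ranged from 1 to 6 without 1 library (1 without DM-PBS 2 and 6 without DM-AA 1). Replicate numbers did not pair the samples: deviations of same-numbered AA and PBS libraries correlated at -0.028 to 0.024 across genes, and with a replicate block 2444 genes were called in GM, 3109 in DM, 590 for the difference and 7826 for the medium, while no member's call changed. DESeq2 called 1782, 2444, 476 and 7113. Depth limits Saa3 (13 to 51 reads per library), Slpi (23 to 129 reads) and Nos2 in DM (45 to 85 reads), and Icam1 could not be tested.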
